A study of Macaca mulatta with 51 samples.

Results

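The genes described here are the members of the insulin signaling route that ends at the glucose transporter GLUT4. They were chosen by symbol from a list of 9: INSR, IRS1, IRS2, PIK3R1, AKT2, TBC1D4, GRB14, FOXO1 and SLC2A4. Of these, 8 were found among the 16033 genes of the count table, and IRS2 was not analysed here. All 8 passed the filter on low counts in both tissues.

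The animals were 10 obese, non-diabetic rhesus macaques (Macaca mulatta), 5 males and 5 ovariectomized females of 11–22 years. They had been kept on a diet rich in fat for 2 years or longer. All groups came from this cohort and shared the diet, but not every animal had a library at each time point. The animals received native human FGF21 once daily under the skin for 12 weeks, followed by 16 weeks of washout. The dose began at 10 µg/kg/day and rose to 1000 µg/kg/day, with 1 animal held at 300 µg/kg/day. RNA sequencing was done on abdominal subcutaneous adipose tissue (AT) and gastrocnemius skeletal muscle (SM) before treatment, at its end and at the end of washout. The authors reported that the animals lost body weight during treatment and regained it during washout. There was no vehicle-treated group, so treatment, weight change and time cannot be told apart.

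In AT, 10 libraries were pre-treatment, 9 post-treatment and 8 washout (10 animals in all), and in SM these numbers were 6, 8 and 7 (8 animals), with 14455195 to 23940980 counts per library. Markers set AT and SM apart: 4 adipocyte markers (ADIPOQ, PLIN1, FABP4 and PPARG) summed to 8778–28814 CPM (the count scaled to the size of its library) in AT and 36.9–1103 CPM in SM, and 7 skeletal muscle fiber markers to 41499–220376 CPM in SM and 47.2–163 CPM in AT. In AT, the post-treatment library of animal 20275 stood apart, with the lowest level of its time point for 7 of the 8 genes and the highest sum of 8 macrophage markers, 4982 CPM against 788–3391 CPM in the others. In SM, the post-treatment libraries of animals 21189, 21866 and 24849 had fiber marker sums of 41499, 82020 and 87102 CPM, against 104826–220376 CPM in the other 5. The identifiers of the libraries form 3 runs of numbers, named first, middle and last series here, and the labels do not say what they stand for.

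Insulin signaling begins when the hormone activates the receptor INSR, a tyrosine kinase that phosphorylates docking proteins such as IRS1. IRS1 recruits phosphoinositide 3-kinase through its regulatory subunit p85α, encoded by PIK3R1, and the lipid signal that the kinase makes activates AKT2. AKT2 phosphorylates TBC1D4 (AS160), a Rab GTPase-activating protein that otherwise holds GLUT4 vesicles inside the cell, and it keeps the transcription factor FOXO1 out of the nucleus. GRB14 is an adaptor that binds the activated receptor and inhibits it. SLC2A4 encodes GLUT4, through which adipocytes and muscle fibers take up glucose in response to insulin. The route works largely through phosphorylation and vesicle movement, neither of which mRNA levels report.

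In AT, 4 of the 8 transcripts of this route were lower at the post-treatment time point than at pre-treatment, and none was higher by the test used. A gene counted as differentially expressed (DE) where edgeR's quasi-likelihood test with animal in the model gave an adjusted p below 0.05 and the log2 fold change exceeded 0.26 in size. PIK3R1, AKT2, TBC1D4 and GRB14 were DE, all lower, which is 4 of 8 members, while 15.5% of the 13367 genes tested in AT were DE, 8.49% lower and 6.98% higher. With library size as the only scaling, the split over all genes moved from 933 higher and 1135 lower to 1131 and 1012. Again 4 members were DE under that scaling, all lower. With any of the animals 20275, 21866 and 22130 left out, 2 members (TBC1D4 and GRB14) were DE. Of the other 4, INSR, IRS1 and SLC2A4 had lower fitted levels without reaching the limit, and the level of FOXO1 was close to its pre-treatment value. The median log2 fold change was -0.57 over the 8 genes and 0.03 over all genes tested. The ranges of the libraries overlapped between time points for every member in AT and in SM, as they did for most genes: the share of all genes tested whose ranges did not overlap was 0.0748% post-treatment compared to pre-treatment, 2.41% at washout compared to post-treatment and 2.27% compared to pre-treatment in AT, and 0.00793%, 0.705% and 1.51% in SM. In bulk tissue, fewer cells of a type and less RNA per cell cannot be told apart.

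**Figure D1:**
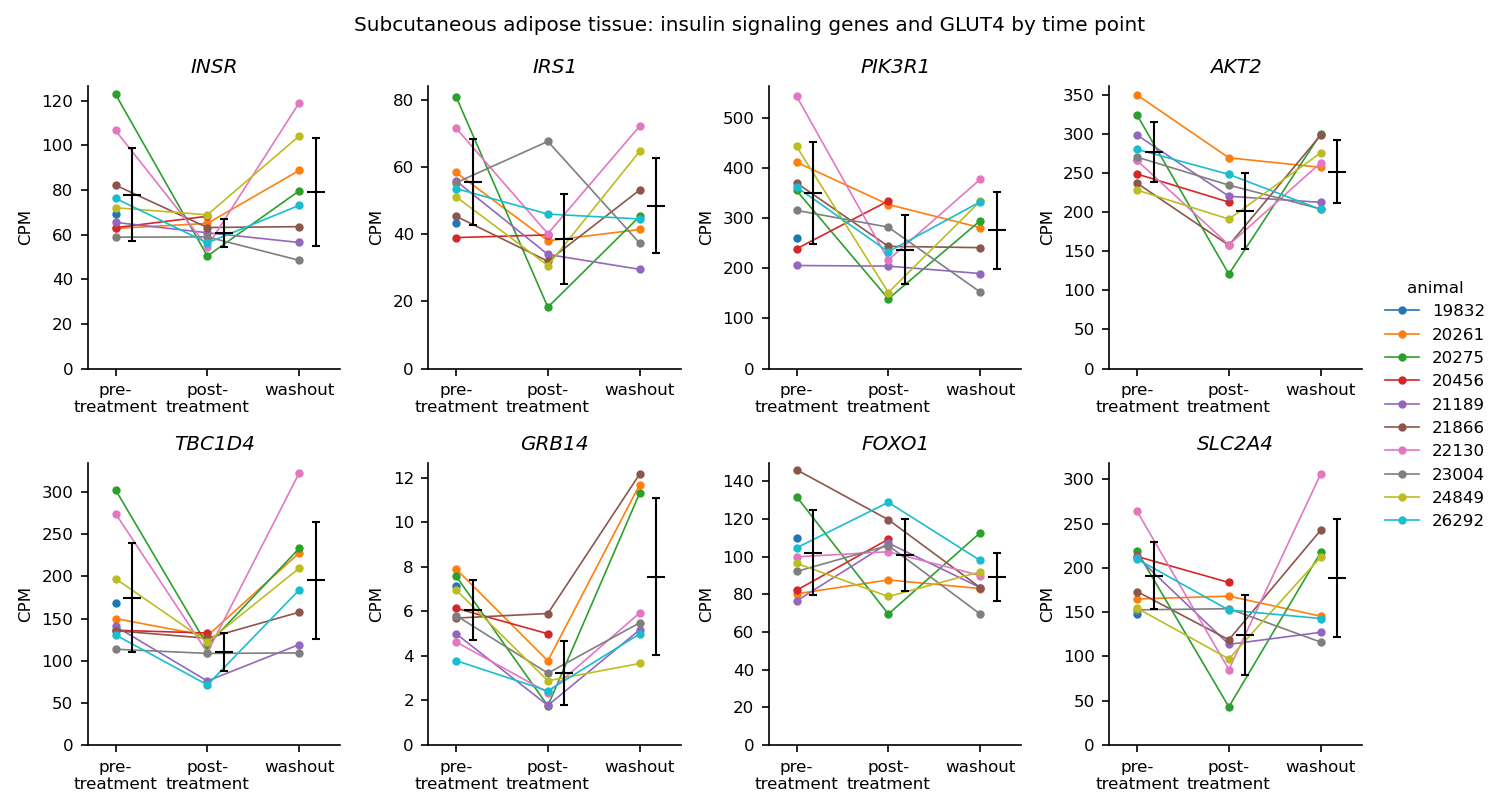
Levels of the 8 genes in AT, in CPM on a linear axis from 0, at the 3 time points, with 1 line per animal and black bars for the mean ± SD of the libraries. TBC1D4 and GRB14 are lower post-treatment in 9 and 8 of 9 animals and higher again at washout in all 8 animals with both libraries, and the post-treatment library of animal 20275 lies lowest in 7 of the 8 panels.

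At the receptor, INSR ranged from 58.8 to 123 CPM (median 70.6, n = 10) pre-treatment in AT and from 50.4 to 68.8 CPM (median 60.8, n = 9) post-treatment. The pre-treatment libraries of animals 20275 and 22130 were the highest, at 123 and 107 CPM, and the rest lay close to the post-treatment libraries. INSR differed by -0.34 on the log2 scale (SE 0.14, adjusted p = 0.102, edgeR quasi-likelihood), with lower values in 6 of 9 animals. IRS1, the docking protein next in the route, ranged from 39.0 to 81.1 CPM (median 54.5) pre-treatment and from 18.3 to 67.7 CPM (median 38.1) post-treatment. Animals 20456 and 23004 were the exceptions in which IRS1 was higher after treatment. Its log2 fold change was -0.57 (SE 0.20, adjusted p = 0.0546, edgeR quasi-likelihood), lower in 7 of 9 animals, and DESeq2 called it (adjusted p = 0.0220). IRS1 was also called without animal 20456 (adjusted p = 0.0427) or 23004 (0.0212).

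PIK3R1, which encodes the regulatory subunit p85α, went from 205–543 CPM (median 358) pre-treatment to 139–334 CPM (median 233) post-treatment in AT. The level was lower in 8 of 9 animals, and only animal 20456 was higher. On the log2 scale PIK3R1 changed by -0.57 (SE 0.19, adjusted p = 0.0451, edgeR quasi-likelihood). The call was lost without animal 20261, 20275, 21866, 22130, 24849 or 26292, at adjusted p of 0.0587, 0.108, 0.0777, 0.141, 0.0951 and 0.0812, and without animal in the model, at 0.0510. AKT2, the AKT isoform most tied to insulin-stimulated glucose uptake, went from 228–350 CPM (median 268) to 121–270 CPM (median 213). It was lower in 9 of 9 animals, by -0.47 on the log2 scale (SE 0.14, adjusted p = 0.0311, edgeR quasi-likelihood). Without animal 20275, 21866 or 22130 the adjusted p of AKT2 was 0.0688, 0.0506 and 0.0889.

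TBC1D4, the Rab GTPase-activating protein between AKT2 and GLUT4 vesicles, ranged from 114 to 303 CPM (median 145) pre-treatment in AT and from 71.3 to 133 CPM (median 118) post-treatment. Animals 20275 and 22130 had the highest pre-treatment levels, 303 and 274 CPM, and all 9 animals were lower post-treatment, some of them only slightly. TBC1D4 changed by -0.60 on the log2 scale (SE 0.15, adjusted p = 0.0145, edgeR quasi-likelihood). It remained DE with any 1 animal left out (log2 fold changes from -0.68 to -0.51).

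GRB14, the inhibitor of the receptor, was the member with the largest fold change. It ranged from 3.79 to 7.90 CPM (median 5.98) pre-treatment and from 1.76 to 5.90 CPM (median 2.88) post-treatment in AT, on 30 to 151 counts per library. The level fell in 8 of 9 animals, and animal 21866 was the exception at 5.90 CPM. Its log2 fold change was -0.93 (SE 0.20, adjusted p = 0.00812, edgeR quasi-likelihood), and it was DE in all 22 alternative settings. The genes called lower thus covered the regulatory subunit p85α (PIK3R1), AKT2, the brake on GLUT4 vesicles that AKT2 releases (TBC1D4) and the inhibitor GRB14. Of the 22 settings, PIK3R1 was called in 10 and AKT2 in 17.

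FOXO1, the transcription factor that AKT restrains, ranged from 76.5 to 146 CPM (median 98.2) pre-treatment and from 69.5 to 129 CPM (median 106) post-treatment in AT. Higher and lower changes occurred together, with 6 of 9 animals higher. The fitted log2 fold change of FOXO1 was 0.02 with a 95% interval from -0.24 to 0.28 (adjusted p = 0.942, edgeR quasi-likelihood).

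SLC2A4, the gene of GLUT4, ranged from 148 to 264 CPM (median 192) pre-treatment and from 43.2 to 184 CPM (median 119) post-treatment in AT. Animal 20275 went from 219 to 43.2 CPM and animal 22130 from 264 to 85.2 CPM, whereas animals 20261 and 23004 stayed within a few CPM of where they began. SLC2A4 differed by -0.67 on the log2 scale (SE 0.23, 95% interval -1.16 to -0.18, adjusted p = 0.0574, edgeR quasi-likelihood), lower in 7 of 9 animals. The gene thus missed the limit in this fit, and it was DE with DESeq2 (adjusted p = 0.0199), with the identifier series in the model (0.0350), with at least 10 counts in every library (0.0487), without animal in the model (0.0494) and without animal 20261 (0.0487) or 23004 (0.0378). With the post-treatment library of animal 20275 and the pre-treatment library of animal 22130 left out, its log2 fold change was -0.47 (adjusted p = 0.157).

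Other measured features of the AT libraries were compared between the same time points. Macrophage marker sums ranged from 503 to 2206 CPM (median 1217) pre-treatment and from 788 to 4982 CPM (median 2076) post-treatment, with higher fitted levels of all 8 markers and 1 of them, AIF1, DE. The adipocyte marker sums ranged from 13588 to 28814 CPM (median 15964) pre-treatment and from 9269 to 25814 CPM (median 15970) post-treatment. Within that list PLIN1, which coats lipid droplets, and PPARG, the adipocyte transcription factor, were DE and lower (log2 fold changes -0.62 and -0.70), and ADIPOQ and FABP4 had values of -0.21 and -0.17. T cell markers had higher fitted levels in 4 of 4 genes (median log2 fold change 0.51, CD8A DE). Of the 5 progenitor markers 3 had higher and 2 lower fitted levels (median 0.12), and DPP4 was DE and higher. With 0 DE, smooth muscle markers had lower fitted levels in 4 of 4 genes (median -0.33, median sum from 1797 to 1143 CPM) and erythroid markers in 3 of 3 (median -1.13, sum from 2676 to 852 CPM). Of the 4 endothelial markers and 7 fiber markers, 0 were DE. The part of cell composition in the members' changes was not tested. Without the post-treatment library of animal 20275 and the pre-treatment library of animal 22130, only GRB14 of the 8 remained DE, and TBC1D4 had a log2 fold change of -0.50 (adjusted p = 0.0666). Without the pre-treatment library of animal 20275, 2 members, TBC1D4 and GRB14, were DE.

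The change was also examined within identifier series, as the mean of the within-animal differences in log2 CPM. Among the 6 animals with both AT libraries in the last series, AKT2, IRS1, PIK3R1 and TBC1D4 were lower in 6 of 6 animals (means -0.54, -0.82, -0.75 and -0.69), and GRB14, SLC2A4 and INSR were lower in 5 of 6 (means -1.06, -0.81 and -0.37). In the 2 animals of the middle series, the mean differences were smaller for GRB14 (-0.56), AKT2 (-0.22), SLC2A4 (-0.10) and TBC1D4 (-0.05). For INSR (0.06), IRS1 (0.16) and PIK3R1 (0.16) they had the opposite sign there. Within the middle series, INSR and IRS1 were higher in 2 of 2 animals, and PIK3R1 was higher in 1 of 2. That series holds too few animals for a test.

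At washout, SLC2A4, TBC1D4 and GRB14 were higher in AT than post-treatment. These 3 of 8 members were DE and higher, and no member was DE and lower. In the same comparison 35.4% of all genes tested were DE, 17.6% higher and 17.8% lower. With library size as the only scaling, the split over all genes moved from 2352 higher and 2379 lower to 2979 and 1750, and 5 members were DE, all higher.

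TBC1D4 ranged from 109 to 322 CPM (median 197, n = 8) at washout, and all 8 animals exceeded their post-treatment level, animal 23004 by less than 1 CPM. TBC1D4 rose by 0.76 on the log2 scale (SE 0.16, adjusted p = 0.00115, edgeR quasi-likelihood). GRB14 ranged from 3.66 to 12.2 CPM (median 5.71) at washout, with animals 20261, 20275 and 21866 above 11 CPM and the other 5 below 6 CPM. It was higher in 8 of 8 animals, by 1.24 on the log2 scale (SE 0.21, adjusted p = 2.26e-04, edgeR quasi-likelihood). Both genes kept the call in all 22 alternative settings.

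SLC2A4 ranged from 116 to 306 CPM (median 179) at washout in AT. The level was higher than post-treatment in 5 of 8 animals, most of all in animals 20275 and 22130, in which it had been lowest post-treatment. The fitted log2 fold change of SLC2A4 was 0.64 (SE 0.25, adjusted p = 0.0492, edgeR quasi-likelihood). The call was lost without animal 20275, 21189, 21866, 22130 or 24849, at adjusted p of 0.104, 0.0572, 0.119, 0.149 and 0.126. In the 3 animals with both libraries in the last series, SLC2A4 differed by a mean of 0.33, TBC1D4 by 0.59 and GRB14 by 1.37 in log2 CPM.

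The other 5 members were not DE at washout compared to post-treatment. AKT2 ranged from 204 to 300.3 CPM (median 260), a log2 fold change from post-treatment of 0.34 (adjusted p = 0.0777, edgeR quasi-likelihood), and was called without animal 23004 (adjusted p = 0.0470) or 26292 (0.0329). INSR, at 48.5–119 CPM (median 76.3), and IRS1, at 29.6–72.3 CPM (median 45.0), had log2 fold changes of 0.32 and 0.31, with adjusted p of 0.0992 and 0.257 (edgeR quasi-likelihood). PIK3R1, at 152–377 CPM (median 288), had a log2 fold change of 0.20 (adjusted p = 0.462). FOXO1, at 69.5–113 CPM (median 86.8), was the only member with a lower fitted level (log2 fold change -0.19, adjusted p = 0.2603), and was called without animal 20275 (adjusted p = 0.0483). Over the same interval the macrophage marker sums had a median of 582 CPM at washout, with all 8 markers DE and lower. Other marker lists moved too: smooth muscle had 4 of 4 genes with higher fitted levels (2 DE, median log2 fold change 1.26, median sum from 1143 to 1757 CPM), and erythroid 3 of 3 (2 DE, median 1.59, sum from 852 to 5107 CPM). Of the progenitor list 4 of 5 markers had lower fitted levels, and PDGFRA and DPP4 were DE. The T cell list had 4 of 4 lower, with CD8A DE. Endothelial markers had higher fitted levels in 3 of 4 genes, with CDH5 DE. The adipocyte list was split, with 2 of 4 genes higher (PPARG DE, 0.49) and 2 lower. Its median log2 fold change was -0.01, and its median sum went from 15970 to 13305 CPM. The part of these cells in the members' changes was not tested.

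Compared to pre-treatment, 0 of 8 members were DE in AT at washout, while 20.5% of all genes tested were DE (12.5% higher, 7.96% lower; 1671 and 1064 genes, or 2313 and 590 with library size only), and 0 of the 8 had an unadjusted p under 0.05 (edgeR quasi-likelihood). SLC2A4 differed by a log2 fold change of -0.03 (95% interval -0.53 to 0.48), TBC1D4 by 0.15 (-0.17 to 0.47) and GRB14 by 0.31 (-0.11 to 0.73). INSR, IRS1, AKT2 and FOXO1 had values of -0.02, -0.27, -0.13 and -0.17. PIK3R1 was the member furthest below its first level, at -0.38 on the log2 scale (SE 0.19, adjusted p = 0.176) and a lower value in 8 of 8 animals. It was called when only these 2 time points were fitted (adjusted p = 0.00621) or with the identifier series in the model (0.0230), so that these 2 settings gave 1 DE member and DESeq2 gave 0. The 3 comparisons within a tissue share libraries, so their results are not independent of each other.

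**Figure D2:**
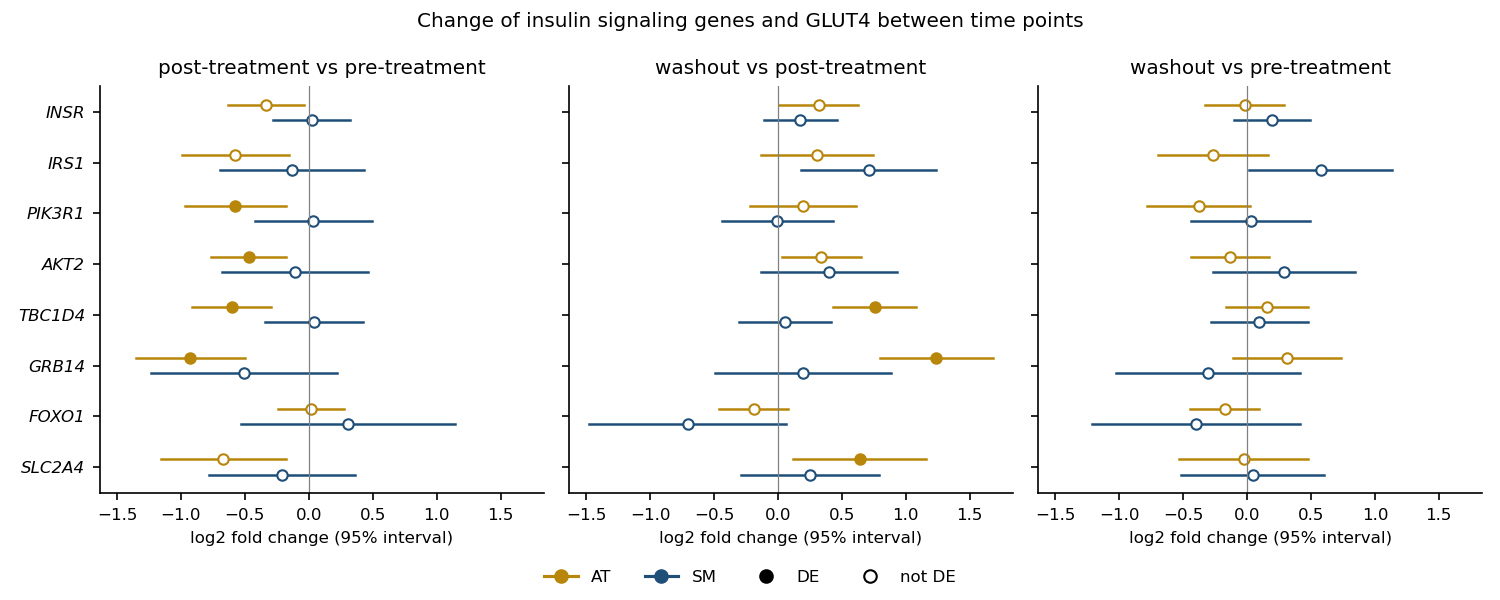
Log2 fold changes of the 8 genes with 95% intervals in AT and SM for the 3 comparisons between time points, with filled points for DE genes. In AT, PIK3R1, AKT2, TBC1D4 and GRB14 are DE and lower post-treatment, TBC1D4, GRB14 and SLC2A4 are DE and higher at washout than post-treatment, and no gene is DE in SM.

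SM takes up most of the glucose that insulin clears from blood, and there no member was DE. Post-treatment compared to pre-treatment, 0 of 8 members were called, as were 0% of the 12617 genes tested in SM, and 0 of the 8 had an unadjusted p under 0.05 (edgeR quasi-likelihood). DESeq2 and voomWithQualityWeights called 0 members as well. SLC2A4 ranged from 355 to 587 CPM (median 420, n = 6) pre-treatment and from 125 to 630 CPM (median 397, n = 8) post-treatment. The post-treatment spread was the wider, with libraries both above and below the pre-treatment range. The fitted log2 fold change was -0.21 (95% interval -0.78 to 0.36), so that a change of the size fitted in AT lies inside the interval. AKT2 ranged from 105 to 172 CPM (median 157) and then from 55.8 to 218 CPM (median 142), with a log2 fold change of -0.11 (-0.68 to 0.46). INSR (0.02), IRS1 (-0.13), PIK3R1 (0.03) and TBC1D4 (0.04) had small fitted changes in SM as well.

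**Figure D3:**
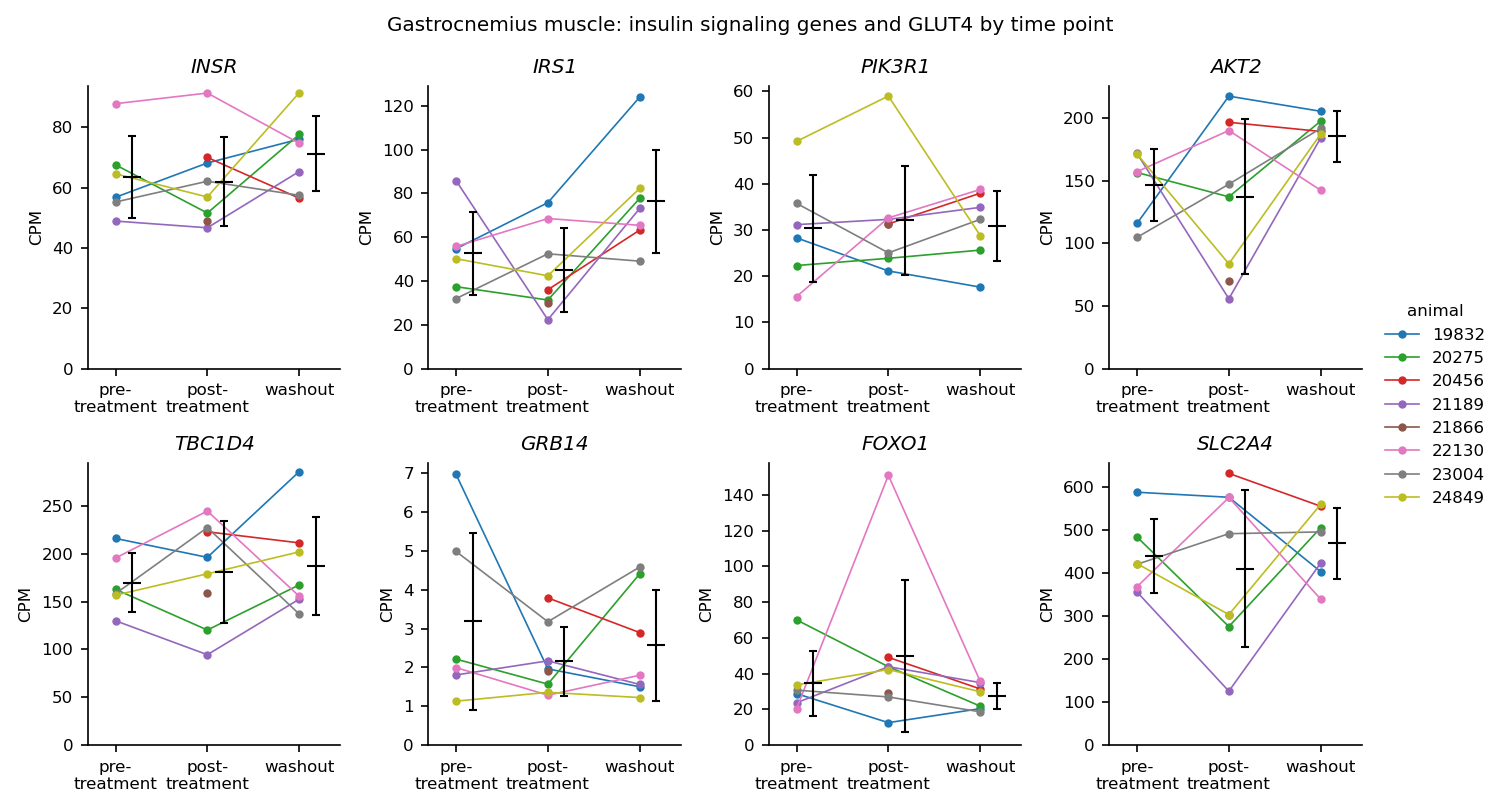
Levels of the 8 genes in SM, in CPM on a linear axis from 0, at the 3 time points, with 1 line per animal and black bars for the mean ± SD. AKT2 and SLC2A4 reach their lowest post-treatment levels in animal 21189, at 55.8 and 125 CPM, and FOXO1 is highest post-treatment in animal 22130, at 151 CPM.

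The 3 SM post-treatment libraries with low fiber marker sums, those of animals 21189, 21866 and 24849, were also the only ones of that group in the last identifier series. In them AKT2 was at 55.8–83.7 CPM, against 137–218 CPM in the other 5, and IRS1 was at 22.3–42.3 CPM, against 31.3–75.7 CPM. SLC2A4 was at 125–303 CPM in the 3 and at 275–630 CPM in the 5. PIK3R1 lay the other way, at 31.2–59.0 CPM in the 3 and 21.1–32.6 CPM in the 5. The ranges of INSR, TBC1D4, FOXO1 and GRB14 overlapped between the 3 and the 5, and those of FOXO1 (12.5–151 CPM) and GRB14 (1.28–3.79 CPM) were the wider in the 5. Fiber content and identifier series cannot be told apart in this group. FOXO1 post-treatment was at 12.5–49.1 CPM in 7 libraries and at 151 CPM in that of animal 22130, whose erythroid marker sum was 4276 CPM against 16.3–105 CPM in the others. Without animal 22130, the post-treatment log2 fold change of FOXO1 was -0.16 in place of 0.31, and neither passed the test.

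At washout, 0 of 8 members were DE in SM compared to post-treatment, beside 0.19% of all genes tested (0.182% higher, 0.00793% lower), and 0 compared to pre-treatment, beside 0.0634%, all of them higher. IRS1 alone had an unadjusted p under 0.05 in these comparisons, 1 member in each. It ranged from 31.9 to 85.8 CPM (median 52.4) pre-treatment, from 22.3 to 75.7 CPM (median 39.2) post-treatment and from 49.0 to 124 CPM (median 73.1, n = 7) at washout. The washout libraries lay toward the upper end, and 5 of 7 animals were above their post-treatment level. IRS1 differed by 0.71 on the log2 scale (SE 0.25, unadjusted p = 0.0116, adjusted p = 0.181, edgeR quasi-likelihood) from post-treatment and 0.58 (SE 0.26, adjusted p = 0.362) from pre-treatment. With the identifier series in the model, IRS1 was called in both comparisons (log2 fold changes 1.25 and 1.0, adjusted p = 0.00854 and 0.0301), and so was AKT2 (1.09 and 0.75, adjusted p = 0.00667 and 0.0389). The share of all genes called in that setting is not given here. The 97 pathway genes described below gave 25 and 18 calls in it, against 1 and 0 without the series. In SM the washout libraries were mostly in the last series and the post-treatment ones mostly in the first, so series and time point were partly mixed. The post-treatment libraries of the last series were those with low fiber marker sums. DESeq2 and voomWithQualityWeights, without the series, called 0 members in either comparison.

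AKT2 ranged from 143 to 206 CPM (median 190) at washout in SM, with a log2 fold change of 0.40 from post-treatment (adjusted p = 0.431, edgeR quasi-likelihood). In the 2 animals with both libraries in the last series, 21189 and 24849, AKT2 differed by a mean of 1.44 in log2 CPM between these time points. SLC2A4 differed by a mean of 1.32 in them. Their post-treatment libraries were among those with low fiber marker sums, at 41499 and 87102 CPM, against 154559 and 199116 CPM at washout. Fiber content and time point cannot be told apart in these 2 animals. SLC2A4 at washout was at 339–559 CPM (median 495), and its log2 fold changes were 0.25 from post-treatment and 0.04 from pre-treatment. FOXO1 at washout was at 18.6–35.7 CPM (median 29.8), below its post-treatment level in 6 of 7 animals, with a log2 fold change of -0.71 (adjusted p = 0.331). TBC1D4 (137–286 CPM, median 168), INSR (56.5–91.5 CPM, median 74.7) and PIK3R1 (17.6–38.7 CPM, median 32.3) had log2 fold changes of 0.06, 0.17 and -0.01. GRB14 lay at 1.13–6.97 CPM pre-treatment, 1.28–3.79 CPM post-treatment and 1.22–4.58 CPM at washout in SM, on 18 to 107 counts per library, and its log2 fold changes from pre-treatment were -0.51 and -0.31.

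Whether the changes differed between the tissues was tested as the SM change minus the AT change over 12322 genes. For post-treatment compared to pre-treatment, 0 of 8 members were called, beside 0.0487% of all genes. The differences of TBC1D4 and SLC2A4 were 0.69 (SE 0.24, adjusted p = 0.263, edgeR quasi-likelihood) and 0.52 (95% interval -0.25 to 1.29, adjusted p = 0.661). For washout compared to post-treatment, TBC1D4 (-0.69, SE 0.23, adjusted p = 0.0338) and GRB14 (-1.03, SE 0.37, adjusted p = 0.0416) changed further upward in AT, 2 of 8 members, beside 22.7% of all genes (10.8% higher and 11.9% lower in SM minus AT, a split of 1332 and 1461 genes, or 756 and 2265 with library size only). SLC2A4 had a difference of -0.38 (95% interval -1.15 to 0.38, adjusted p = 0.494), and its rise in AT was not shown to differ from the change in SM.

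Both calls held with library size only and were near the limit. Without animal in the model the adjusted p was 0.0575 for TBC1D4 and 0.121 for GRB14. For TBC1D4 the call was lost without animal 22130, 23004, 24849 or 26292 (adjusted p 0.160, 0.0513, 0.0618 and 0.0729). For GRB14 it was lost without animal 20261, 20456, 21189, 22130, 23004 or 24849 (0.0770, 0.0774, 0.146, 0.0721, 0.0504 and 0.0522). For washout compared to pre-treatment, 0 of 8 members were called, beside 17.5% of all genes (8.38% higher, 9.13% lower; 1032 and 1125 genes, or 559 and 1815 with library size only). IRS1 came closest, at 0.90 (SE 0.35, adjusted p = 0.0700), and was called without animal 21189 (adjusted p = 0.0244).

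Before treatment, the tissues differed in their levels of most members, as did 71.6% of the 13662 genes tested (33.9% higher and 37.8% lower in SM). With both tissues scaled together, SLC2A4 was at 516–809 CPM in SM and 115–207 CPM in AT. In SM compared to AT its log2 fold change was 2.08 (SE 0.21, adjusted p = 2.40e-05, edgeR quasi-likelihood). PIK3R1 was the reverse, at 22.4–72.7 CPM in SM and 160–426 CPM in AT (log2 fold change -2.67, SE 0.30, adjusted p = 4.80e-05). FOXO1 was lower in SM by 0.79 on the log2 scale, at 29.1–99.5 CPM against 59.7–114 CPM. These 3 genes kept the call in all 14 alternative settings.

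INSR (log2 fold change 0.52), IRS1 (0.64) and TBC1D4 (0.70) were called higher in SM, 6 of 8 members in all, whereas AKT2 (-0.06) and GRB14 (-0.32) were not called. These comparisons depend on the scaling. With library size only, the median of all genes moved from -0.10 to -0.93, the split over all genes went from 4627 higher and 5159 lower to 1988 and 8000, and INSR, IRS1 and TBC1D4 had log2 fold changes of -0.32, -0.19 and -0.13. Under that scaling AKT2 (-0.90, adjusted p = 7.46e-04, edgeR quasi-likelihood) and GRB14 (-1.15, adjusted p = 0.0109) were called lower in SM, so that the members called went from 4 higher and 2 lower to 1 higher and 4 lower. Relative to that median, these 3 genes were higher in SM under both scalings. IRS1 lost its call without animal 19832, 21189, 22130 or 24849 (adjusted p 0.0871, 0.0908, 0.0527 and 0.0731).

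The other genes of the pathway were counted from a list of 108 genes in 10 groups by role, of which 97 were in the table and 96 were tested in AT. Post-treatment, DE genes of AT numbered 21 of the 96, with 6 higher and 15 lower (6 and 11 with library size only). The 21 were a share of 21.9% beside 15.5% of all genes. The median log2 fold change of the 96 was -0.03, close to the 0.03 over all genes. The 21 calls were 8 without animal 20275 or 22130, 10 without 21866 and 11 without 21189, and 6 without the post-treatment library of animal 20275 and the pre-treatment library of animal 22130.

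**Figure D4:**
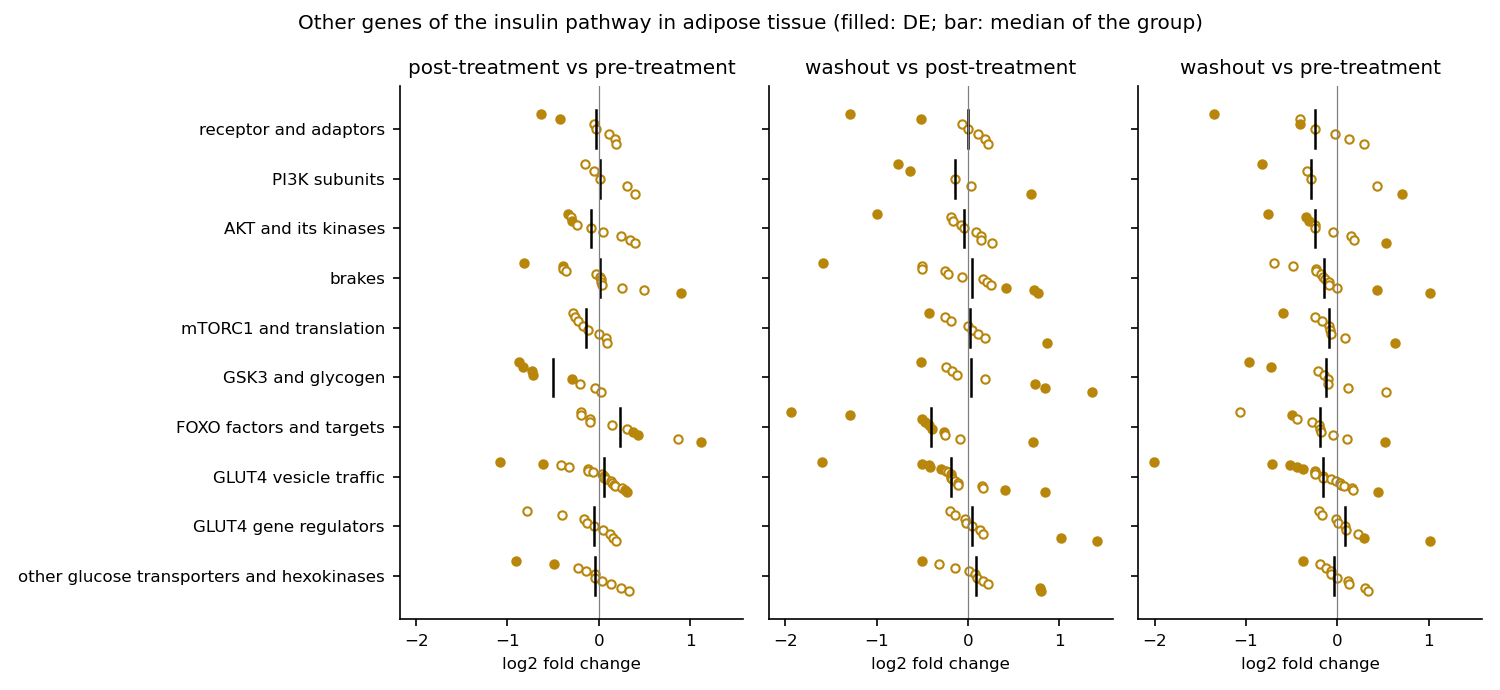
Log2 fold changes in AT of the 96 other insulin pathway genes tested, by role, for the 3 comparisons, with filled points for DE genes and black bars for the median of each group. Post-treatment, the glycogen group lies lowest with a median of -0.51 and the FOXO group highest with 0.23, and at washout compared to post-treatment the FOXO group lies lowest with -0.41.

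Glycogen genes gave 5 of the 15 decreases, from 8 tested (median -0.51), beside 8.49% lower of all genes tested. GYS1, muscle-type glycogen synthase, went from 112–240 CPM (median 157) to 47.1–144 CPM (median 83.1). It was lower in 9 of 9 animals, by -0.88 on the log2 scale (SE 0.22, adjusted p = 0.0157, edgeR quasi-likelihood), and had an adjusted p of 0.0606 without the post-treatment library of animal 20275 and the pre-treatment library of animal 22130. PPP1R3B and PPP1R3C, which bring a phosphatase to glycogen, had log2 fold changes of -0.73 and -0.72, and GSK3A, a kinase that inhibits glycogen synthase, of -0.29. PYGM, a glycogen phosphorylase, had one of -0.83 (adjusted p = 0.0427), and the call was lost without animal 20275, 21189, 21866, 22130, 24849 or 26292 (adjusted p 0.0614 to 0.104).

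The largest decrease of the list was that of TUSC5, a protein of GLUT4 vesicles in adipocytes, which went from 567–1131 CPM (median 741) to 143–678 CPM (median 354). TUSC5 was lower in 9 of 9 animals, by -1.08 on the log2 scale (SE 0.24, adjusted p = 0.0101, edgeR quasi-likelihood). SORT1, which sorts cargo into those vesicles, was lower (-0.61), while SNAP23 and STXBP3 of the fusion machinery were higher (0.29 and 0.31). The call of STXBP3 was lost without animal 20275, 20456, 21189, 21866 or 22130 (adjusted p 0.0573 to 0.104). HK2, the hexokinase that traps glucose after uptake, went from 53.7–115 CPM to 21.0–74.7 CPM, lower in 9 of 9 animals (log2 fold change -0.90, SE 0.13, adjusted p = 8.59e-04). PPP2R5B, a phosphatase subunit among the brakes, was lower in 9 of 9 animals as well (-0.82, SE 0.12, adjusted p = 8.26e-04), and SLC2A6, another glucose transporter, and INPP5K, a lipid phosphatase, were lower by smaller amounts (-0.50 and -0.39).

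Of the 10 FOXO factors and targets, 3 were DE and higher post-treatment and 0 lower, beside 6.98% higher and 8.49% lower of all genes tested. PDK4, the kinase that shuts off pyruvate oxidation, rose in 9 of 9 animals from 82.7–370 CPM (median 225) to 198–590 CPM (median 519), by 1.12 on the log2 scale (SE 0.19, adjusted p = 0.00235, edgeR quasi-likelihood). CCNG2 and SESN3 rose by 0.37 and 0.43. SESN3 lost its call without animal 20261, 20275, 21189, 21866 or 22130 (adjusted p 0.0664 to 0.103), and CCNG2 without animal in the model (0.0514). SOCS1, a brake on cytokine and insulin signaling, rose from a mean of 1.48 to 2.78 CPM (0.90, adjusted p = 0.0144), and had an adjusted p of 0.0571 without the post-treatment library of animal 20275 and the pre-treatment library of animal 22130. The remaining groups were the receptor and adaptors (with CAV1 among the lower genes), AKT and its kinases (AKT1 and MTOR lower), and the PI3K subunits, mTORC1 and translation, and GLUT4 gene regulators with 0 DE.

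At washout compared to post-treatment, AT had 36 DE genes among the 96, of which 15 were higher and 21 lower (17 and 17 with library size only), a share of 37.5% beside 35.4% of all genes. Of the FOXO group 7 of 10 were DE and lower and 1, BCL6, was higher, beside 17.8% lower and 17.6% higher of all genes tested. PCK1, the enzyme of glyceroneogenesis in adipocytes, fell by 1.94 on the log2 scale (SE 0.45, adjusted p = 0.00312, lower in 8 of 8 animals, edgeR quasi-likelihood), and PDK4 by 1.29. The glycogen genes GYS1, PYGM and PPP1R3C were higher, by 0.73, 1.36 and 0.84, and so were HK2 (0.78), PPP2R5B (0.73) and TUSC5 (0.84, adjusted p = 0.0154). TUSC5 lost the call without animal 22130 (adjusted p = 0.0518) or 24849 (0.0537). MLXIPL, the glucose-responsive factor ChREBP, rose from 15.4–65.3 CPM (median 51.0) to 68.9–215 CPM (median 134), ranges that did not overlap (log2 fold change 1.41, SE 0.24, adjusted p = 2.53e-04). PPARGC1A, a coactivator that is also listed as a regulator of the GLUT4 gene, rose by 1.02, and TSC2, a brake on mTORC1, by 0.86. SOCS1 fell by 1.59 and CBL, a ubiquitin ligase and adaptor, by 1.30.

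Compared to pre-treatment, AT at washout had 25 DE genes among the 96, with 9 higher and 16 lower, or 11 and 11 with library size only. The 25 DE genes were 26% of this list, beside 20.5% of all genes and 0 of the 8 members. Whether the list and the 8 members differ in this share was not tested. GRB10, a relative of GRB14 that also inhibits the receptor, rose in 8 of 8 animals from 29.5–63.4 CPM (median 48.1) to 72.9–124 CPM (median 95.3), ranges that did not overlap. It rose by 1.01 on the log2 scale (SE 0.13, adjusted p = 1.30e-05, edgeR quasi-likelihood). MLXIPL (1.01), the class II kinase PIK3C2B (0.70), TSC2 (0.63) and RICTOR of mTORC2 (0.53) were higher too, and RICTOR lost its call without animal 20261 (adjusted p = 0.0697). Among the decreases were CBL (-1.35), the glycogen targeting subunit PPP1R3B (-0.97) and the catalytic subunit PIK3CA (-0.82).

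LNPEP, the insulin-regulated aminopeptidase that travels in the same vesicles as GLUT4, moved in opposite directions in the tissues. In AT it was at 35.8–110 CPM (median 59.6) pre-treatment, 23.1–72.5 CPM (median 47.8) post-treatment and 8.78–31.4 CPM (median 11.99) at washout, where every library lay below the pre-treatment range. LNPEP at washout differed by -1.60 on the log2 scale (SE 0.27, adjusted p = 2.07e-04, edgeR quasi-likelihood) from post-treatment and -2.01 (SE 0.26, adjusted p = 2.48e-05) from pre-treatment, lower in 8 of 8 animals. In SM it went from 6.59–17.4 CPM (median 8.05) post-treatment to 15.2–37.1 CPM (median 27.2) at washout, higher in 7 of 7 animals (1.40, SE 0.21, adjusted p = 0.0265). The difference of these changes, SM minus AT, was 3.03 (SE 0.36, adjusted p = 1.04e-06). In SM the call was lost without animal 19832, 20275, 21189 or 24849 (adjusted p 0.0825, 0.151, 0.111 and 0.0969), with library size only or only these 2 time points fitted (0.0624 each), and with voomWithQualityWeights (0.0594).

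LNPEP was the only gene of the 97 pathway genes tested in SM that was DE there, and it was DE only at washout compared to post-treatment, where 19 genes had an unadjusted p below 0.05 (edgeR quasi-likelihood). Post-treatment and washout compared to pre-treatment gave 0 DE pathway genes by edgeR, while the unadjusted p was below 0.05 for 1 and 12 genes. DESeq2 called 5 at washout compared to post-treatment and 4 compared to pre-treatment. With the identifier series in the model, which was unevenly spread over the SM time points, the numbers were 25 and 18. The share of all genes called in these 2 settings is not given here, so these counts have no background beside them. The count of 1 was 2 without animal 21866 or 22130, and the count of 0 compared to pre-treatment was 2 without 21866 or 23004. Tested as differences between the tissues, 20 of the 96 pathway genes in both were called at washout compared to post-treatment, 12 with the higher change in SM and 8 with the higher change in AT (9 and 11 with library size only). This was a share of 20.8% beside 22.7% of all genes. For washout compared to pre-treatment 21 were called, 15 higher and 6 lower in SM minus AT (9 and 10 with library size only), or 21.9% beside 17.5%, and for post-treatment compared to pre-treatment 0 were called.

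The genes whose levels followed the members most closely over the 27 AT libraries were found by Pearson's r of log2 CPM, as a description that includes differences between animals, time points and cell content. For SLC2A4 they were FAM213A (r = 0.92) and AGPAT2 (0.90), an enzyme of triglyceride synthesis. For AKT2 they were CTIF (0.93) and LAMB3 (0.92), for PIK3R1 CHRDL1 and GLCE (0.90 each), and for IRS1 EEPD1 and EHD2 (0.88 each). TBC1D4 was nearest to FRK and USP33 (0.86 each), and it was itself the gene nearest to INSR (0.85), followed by EPM2A (0.85). GRB14 was nearest to VEPH1 (0.83) and RGN (0.82), and FOXO1, with the weakest likeness of the 8, to AGAP1 and ZHX3 (0.79 each).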

How the data were processed

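Punch biopsies of AT and SM were sequenced by the authors from stranded mRNA libraries as paired reads of 50 nucleotides, aligned with STAR to the MacaM macaque genome, and deposited as raw read counts per gene without normalization. The counter and the annotation are not given in the sources used here. Libraries with few uniquely mapped reads had been left out by the authors. Of 51 labelled samples, 48 had counts, and 3 SM samples were not analysed here. Dropping 70 entries that repeated a gene identifier from 16103 entries left 16033 genes. Gene symbols are those of the human homologs in the table.

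The counts were analysed with edgeR 4.0.16 in R 4.3.3. A gene was tested in a tissue if 10% or more of its libraries reached 0.5 CPM, with TMM normalization, time point and animal in the model, robust quasi-likelihood tests (two-sided, legacy = FALSE) and Benjamini-Hochberg adjustment over all genes of the tissue. Differences between tissues used animal within tissue as the block, and SM against AT before treatment used the 2 tissues' pre-treatment libraries. Levels are CPM scaled by TMM within a tissue, and log2 CPM used a prior count of 2. The fit was tested on simulated data. Libraries held 14455195 or more counts, and the biological coefficient of variation over all genes was 0.248 in AT and 0.356 in SM. For GRB14, on few counts, counting error adds to this spread.

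Samples were grouped by the tissue, time point and animal of the labels. The pairing by animal was checked by correlating libraries after removal of time point means. The median r of 25 same-animal pairs was 0.352 in AT, against -0.0354 for 217 pairs of different animals. In SM it was 0.279 (19 pairs) against -0.0464 (127). The lowest r of a same-animal pair was -0.125 in AT and -0.248 in SM, so the check does not settle every single pair.

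The members, the pathway and marker lists, and the rules were chosen with earlier results of these data known. Named pathway genes were the 5 DE genes with the largest change in each direction and comparison at a mean of at least 1 CPM; others are named as parts of their counts, and a few are not reported here. Alternatives were DESeq2 1.42.0, voomWithQualityWeights of limma 3.58.1, library size only, RLE size factors, no filter, a minimum of 10 counts per library, no animal block, only the 2 time points, the identifier series as a covariate, no fold change limit, each animal left out, and AT without the pre-treatment library of animal 20275. Added after the data were seen were edgeR's earlier quasi-likelihood method and the omission of the post-treatment library of animal 20275 with the pre-treatment library of animal 22130.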

Additional observations from a re-analysis of the deposited data

Results flagged for a closer look

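Of 48 sets of values (8 genes, 2 tissues, 3 time points), 4 held a library far from the others of its group by Dixon's criterion, all in SM, where chance would give about 1 in 20. FOXO1 was at 151 CPM in the post-treatment SM library of animal 22130, with the next at 49.1 CPM, and at 70.1 CPM in the pre-treatment SM library of animal 20275, with the next at 33.6 CPM. PIK3R1 was at 59.0 CPM in the post-treatment SM library of animal 24849, with the next at 32.6 CPM, and the adipocyte marker sum of that library was also the highest in SM, 1103 CPM. AKT2 was at 143 CPM in the washout SM library of animal 22130, with the next lowest at 184 CPM.

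The change from post-treatment to washout differed between the tissues for TBC1D4 (SM minus AT, log2 -0.69), GRB14 (-1.03) and LNPEP (3.03), by the test of the difference itself.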

How the results depend on the processing

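In AT, GRB14 kept its calls post-treatment and at washout compared to post-treatment in all 22 alternative settings, and TBC1D4 in 21 and 22. For post-treatment compared to pre-treatment, AKT2 kept its call in 17 of 22 settings and PIK3R1 in 10, and SLC2A4 was called in 6. SLC2A4 at washout compared to post-treatment was called in 11. The causes of the changes below were not tested. The 21 SM and 27 AT libraries limit what could be called: a 95% interval for SLC2A4 in SM post-treatment spanned -0.78 to 0.36.

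Counts of called members moved as follows. Post-treatment compared to pre-treatment, AT had 1 without the post-treatment library of animal 20275 and the pre-treatment library of animal 22130 (an omission chosen after seeing the data), 2 without the pre-treatment library of animal 20275, and from 2 to 6 with 1 animal left out. At washout AT had 5 compared to post-treatment with library size only, and 1 compared to pre-treatment with the identifier series in the model or with only the 2 time points. SM had 2 and 2 at washout with the identifier series, which was unevenly spread over the SM time points. The difference between tissues had from 0 to 2 called members at washout compared to post-treatment, and from 0 to 1 compared to pre-treatment, with 1 animal left out. Counts of the pathway list were 6 and 10 for AT post-treatment without the same libraries, and 8 to 22 with 1 animal left out. In SM at washout compared to post-treatment they were 5 with DESeq2, 25 with the identifier series, 0 with library size only, with only the 2 time points and with voomWithQualityWeights, and 0 to 2 with 1 animal left out. Compared to pre-treatment they were 4 with DESeq2, 18 with the identifier series, 2 with a minimum of 10 counts or RLE size factors, and 0 to 2 with 1 animal left out. Shares of all genes called with DESeq2 or with the identifier series are not given here.

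The fit without the replicate block, that is without pairing by animal, gave 0 called members for the difference between tissues at washout compared to post-treatment, and 3 and 2 pathway genes in SM at washout compared to post-treatment and to pre-treatment, and left the other counts of members as they were. It reversed small log2 fold changes of FOXO1 in AT post-treatment (-0.01401), of INSR in AT at washout compared to pre-treatment (0.0223) and of INSR in SM post-treatment (-0.03606).

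Other log2 fold changes that reversed were near 0 and not called in either setting, except where named. With library size only, SM compared to AT before treatment gave -0.3163 for INSR, -0.1924 for IRS1 and -0.1325 for TBC1D4, all called higher with TMM. The same setting gave 0.08637 for INSR and 0.07822 for SLC2A4 in AT at washout compared to pre-treatment, -0.03093 for PIK3R1 and -0.05422 for SLC2A4 in SM between pre-treatment and washout, and -0.05735 for TBC1D4 in SM at washout compared to post-treatment. With voomWithQualityWeights, SM post-treatment gave 0.1676 for AKT2, 0.04636 for IRS1 and 0.1278 for SLC2A4, SM at washout compared to post-treatment gave -0.02504 for TBC1D4, and AT at washout compared to pre-treatment gave 0.01038 for INSR. With the identifier series, SM post-treatment gave -0.04765 for INSR and -0.009205 for TBC1D4, SM at washout gave -0.226 for GRB14 compared to post-treatment and -0.1092 for PIK3R1 compared to pre-treatment, and AT at washout compared to post-treatment gave -0.0268 for PIK3R1. With only the 2 time points, SM post-treatment gave -0.02597 for INSR and -3.387e-06 for TBC1D4. PIK3R1 in SM at washout compared to post-treatment was 0.00339 with DESeq2 and 0.003326 with RLE size factors. Without the pre-treatment library of animal 20275, INSR and SLC2A4 in AT at washout compared to pre-treatment were 0.09682 and 0.07652, and without the post-treatment library of animal 20275 and the pre-treatment library of animal 22130 they were 0.01904 and 0.005395.

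Log2 fold changes whose sign depended on 1 animal had these ranges with 1 animal left out, and none was called. In AT they were -0.04778 to 0.1213 for FOXO1 post-treatment, and -0.1037 to 0.07217 for INSR and -0.1141 to 0.0615 for SLC2A4 at washout compared to pre-treatment. In SM post-treatment they were -0.3084 to 0.1837 for AKT2, -0.1614 to 0.5945 for FOXO1, -0.02521 to 0.1244 for INSR, -0.3115 to 0.2417 for IRS1, -0.1297 to 0.1388 for PIK3R1, -0.3928 to 0.02455 for SLC2A4 and -0.06058 to 0.1645 for TBC1D4. In SM at washout compared to post-treatment they were -0.05274 to 0.3232 for GRB14, -0.06349 to 0.1508 for PIK3R1 and -0.04045 to 0.1922 for TBC1D4. Compared to pre-treatment they were -0.5615 to 0.09153 for GRB14, -0.1932 to 0.1745 for PIK3R1 and -0.002329 to 0.1313 for SLC2A4. For AKT2 in SM compared to AT the range was -0.1761 to 0.03487.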
